A study of Mus musculus with 10 samples.

Results

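Integrins are cell surface receptors made of 1 alpha and 1 beta subunit, and laminins are basement membrane proteins made of 1 alpha, 1 beta and 1 gamma chain. Mammary epithelium rests on a laminin-rich basement membrane, which basal cells hold through laminin-binding integrins such as the pair of alpha 6 and beta 4 in hemidesmosomes. Macrophages use integrins to attach to matrix and to other cells, and the leukocyte integrins that share the beta 2 subunit are found on blood-derived cells. The genes studied here were every gene whose symbol names an integrin alpha subunit, an integrin beta subunit or a laminin chain. The rule found 37 genes among the 55487 of the count tables, of which 18 encode integrin alpha subunits, 8 integrin beta subunits and 11 laminin chains.

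RNA was sequenced from mammary epithelial cells (MECs) and from mammary gland macrophages of 10-wk-old BALB/c female mice in diestrus. All mice carried floxed Cebpb alleles, which encode the transcription factor C/EBPβ, on both chromosomes (Cebpb fl/fl). The WT mice lacked Cre, and the mice whose libraries are labeled C/EBPb knockdown, here called CebpbΔM, carried a Cre transgene driven by the Csf1r promoter, which acts in cells of the macrophage lineage and can act in other Csf1r-expressing cells. MECs were what remained after depletion of other lineages (libraries WT 1 and 3, CebpbΔM 1 and 3), and macrophages were selected with antibody to F4/80 (libraries WT 4 and 5, CebpbΔM 4, 5, 6 and 7). Cell type and isolation therefore cannot be told apart in a comparison of MECs with macrophages. Nothing in the sources used here says how many mice each library holds, so P values measure the spread between these libraries.

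The libraries held 25310926 to 27008166 counts in MECs and 16935000 to 20174722 in macrophages, and the 37 genes took 0.179% to 0.256% of them. Cebpb itself had 25 to 28 counts in WT MECs, 42 and 69 in CebpbΔM MECs, 13 and 15 in WT macrophages and 4, 5, 13 and 16 in CebpbΔM macrophages. The macrophage genotypes overlapped at this depth, so the targeted gene does not check the genotype labels. The 10 macrophage markers summed to 8272 to 15997 CPM in macrophages and to 33.3 to 43.9 CPM in MECs, and Adgre1, which encodes F4/80, was at 176 to 367 CPM in macrophages and at 0 to 0.53 CPM in MECs. The macrophage libraries also held epithelial RNA. Their 8 luminal markers summed to 16.7% to 32.6% of the WT MEC mean and their 8 basal markers to 10.4% to 44.6% of it. The MEC libraries held fibroblast RNA, with 7 fibroblast markers summing to 5308 to 6473 CPM, beside 6379 to 7944 CPM for the 8 basal markers. The part of fibroblasts in the MEC levels was not tested. In bulk RNA, fewer cells of a type and less RNA per cell cannot be told apart.

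Levels are given as CPM, the counts of a gene relative to the depth of its library, scaled by trimmed mean of M-values (TMM) over the 10 libraries, and, where genes are compared with each other, as CPM per kb of exon length. Per kb, Itgb1, the beta subunit shared by most matrix-binding integrins, had the highest level in MECs. It was at 58.1 and 67.3 CPM per kb in WT MECs and at 75.1 and 78.2 CPM per kb in CebpbΔM MECs. In macrophages the order was led by Itgb2, the subunit common to the leukocyte integrins, at 76.0 and 77.6 CPM per kb in WT and at 63.2 to 108 CPM per kb in CebpbΔM, followed by Itgb1 at 45.4 and 51.2 CPM per kb in WT and at 51.8 to 66.0 CPM per kb in CebpbΔM. These 2 genes did not overlap in WT macrophages, whereas their ranges overlapped in CebpbΔM macrophages. Most neighbors in the order were not separated, with overlapping ranges in 23 of 36 neighboring pairs in WT MECs, 30 in CebpbΔM MECs, 27 in WT macrophages and 33 in CebpbΔM macrophages.

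**Figure D1:**
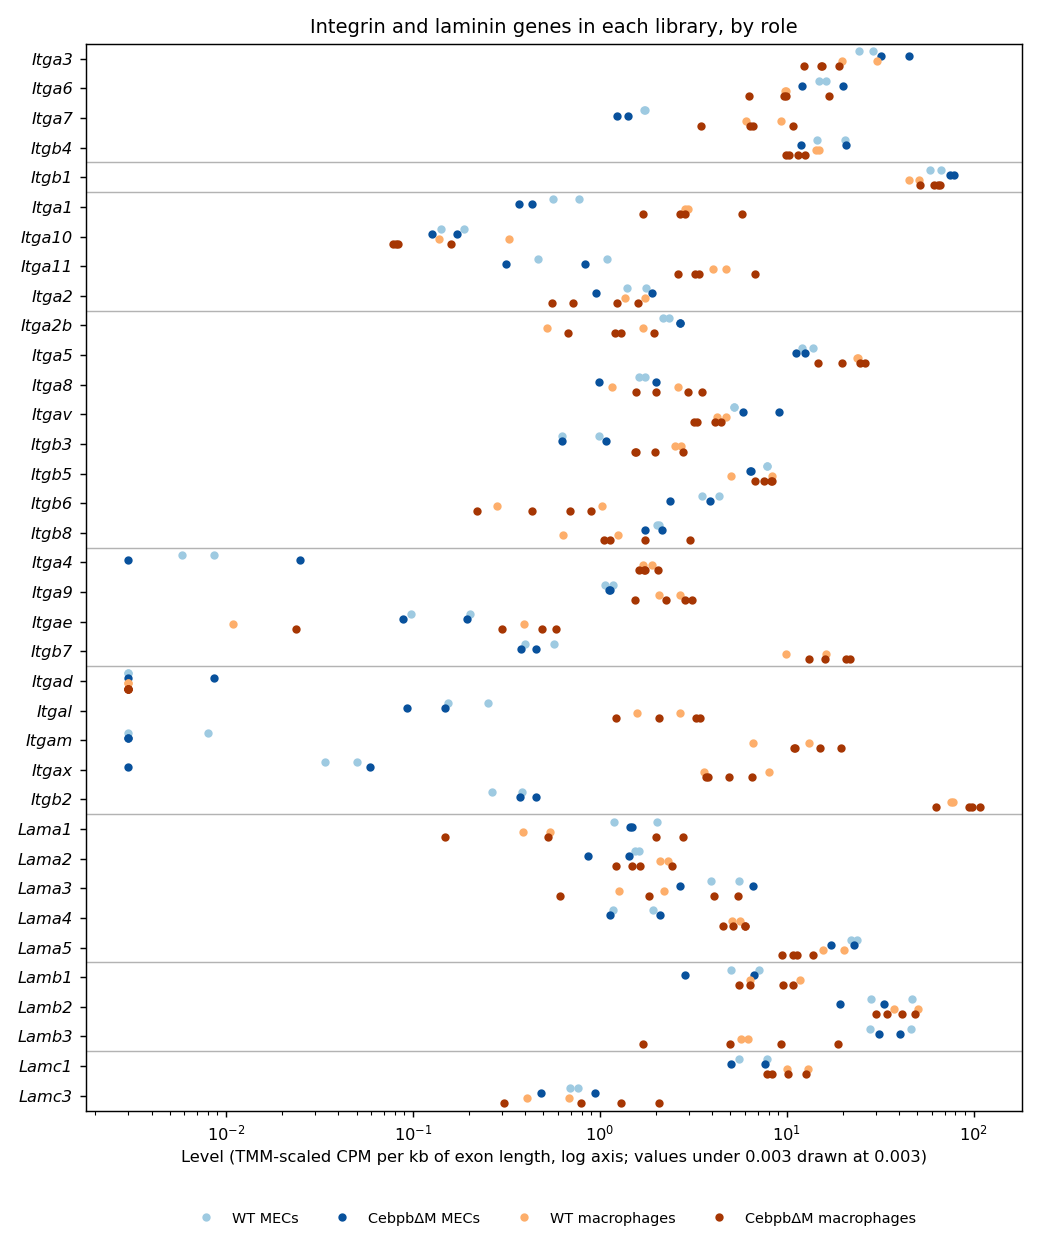
Level of the integrin and laminin genes reported, in each library, in TMM-scaled CPM per kb of exon length on a log axis, with 1 point per library (2 WT MEC, 2 CebpbΔM MEC, 2 WT macrophage and 4 CebpbΔM macrophage libraries) and gray lines between roles. Itgb2, Itgb7, Itgam, Itgax, Itgal and Itga4 lie far to the right in macrophages, Lamb3 and Itgb6 lie to the right in MECs, and the genotypes of a cell type mostly overlap.

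As shares of the genes' summed level per kb, laminin chains took 49.3% ± 4.59 (SD, n = 2) in WT MECs, 43.0% ± 3.95 (n = 2) in CebpbΔM MECs, 29.5% ± 0.631 (n = 2) in WT macrophages and 25.9% ± 4.19 (n = 4) in CebpbΔM macrophages. The leukocyte integrin genes Itgal, Itgam, Itgax, Itgad and Itgb2 took 24.9% ± 1.85 in WT macrophages and 28.7% ± 5.57 in CebpbΔM macrophages, against 0.173% ± 0.0338 in WT MECs and 0.171% ± 0.00328 in CebpbΔM MECs. The subunits that bind the RGD peptide motif of fibronectin and vitronectin (Itga5, Itga8, Itgav, Itga2b, Itgb3, Itgb5, Itgb6 and Itgb8) took 11.2% ± 0.874 in WT MECs and 11.1% ± 0.556 in WT macrophages.

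**Figure D2:**
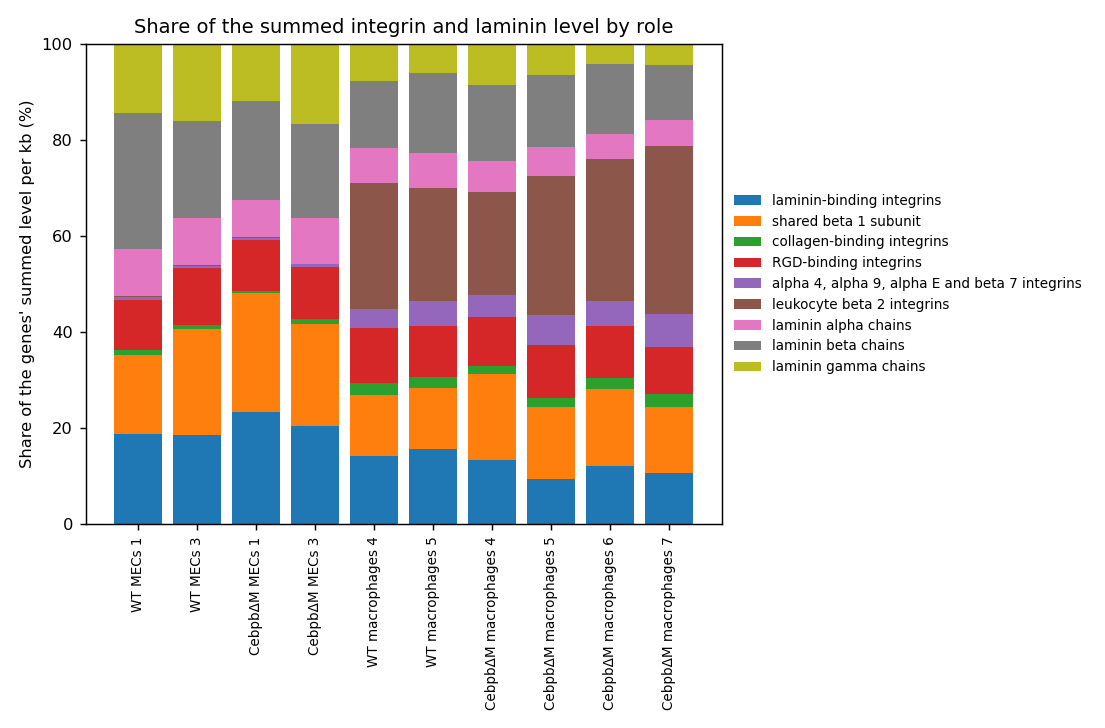
Share of the summed level per kb of the 37 genes taken by each role, in percent, with 1 stacked bar per library. The leukocyte beta 2 segment spans 21.4% to 35.0% in the 6 macrophage libraries and 0.149% to 0.197% in the 4 MEC libraries, and the laminin segments together are taller in the MEC bars.

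Macrophages and MECs of the same genotype were then compared. In WT, 16 of the 35 genes tested passed an adjusted P of 0.05 or less, 13 higher and 3 lower in macrophages, beside 25.5% of all 18323 genes tested (14.8% higher, 10.7% lower). In CebpbΔM, 19 of 35 passed, 13 higher and 6 lower, beside 33.7% of all genes (18.9% higher, 14.7% lower). The median log2 difference of the 35 genes was 0.22 in WT and 0.63 in CebpbΔM, beside 0.06 and 0.07 over all genes tested. Both comparisons share no library. Each of the 16 genes called in WT was also called in CebpbΔM in the same direction, beside 83.6% of the 4664 genes called in WT over all genes tested. The sign was the same for 33 of 35, beside 81.7% of all genes tested. Itga10 and Itgad were below the filter of over 1 CPM in 2 libraries, with at most 34 counts for Itga10 in any library.

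The leukocyte integrin genes Itgb2, Itgam, Itgax and Itgal were higher in macrophages in both genotypes. Itgb2 was at 0.812 and 1.17 CPM in WT MECs and at 232 and 237 CPM in WT macrophages, and at 1.14 and 1.40 CPM in CebpbΔM MECs against 193 to 330 CPM in CebpbΔM macrophages. No macrophage library came near a MEC library. The difference was 7.87 ± 0.35 log2 units (SE; edgeR adjusted P = 4.32e-07) in WT and 7.77 ± 0.34 (adjusted P = 2.02e-07) in CebpbΔM, or 235-fold and 218-fold. Its alpha partners were low or at 0 in MECs. Itgam, the alpha subunit of the complement receptor Mac-1, had 0 or 1 count in each MEC library and 665 to 1802 counts in each macrophage library, so that it was at least 408-fold higher in WT macrophages and at least 583-fold higher in CebpbΔM macrophages, counted against 3 counts per library. Itgax (CD11c, also a marker of dendritic cells) was at 17.4 to 38.7 CPM in macrophages and at 0 to 0.285 CPM in MECs, and Itgal, the alpha subunit of LFA-1, at 8.0 to 22.6 CPM in macrophages and at 0.610 to 1.66 CPM in MECs. The alpha subunit genes lie near each other on chromosome 7 of GRCm38, Itgal at 127296260 to 127335138, Itgam at 128062640 to 128118491, Itgax at 128129547 to 128150657 and Itgad, which had at most 1 count in any library, at 128154376 to 128223816.

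Per kb, the Itgb2 level was 3.74 to 4.70 times the summed level of its 4 alpha partners in the macrophage libraries. Of the markers of other leukocytes, 6 T cell genes summed there to 3.11 to 15.2 CPM, 5 NK cell genes to 0.868 to 2.57 CPM, 5 B cell genes to 4.90 to 13.4 CPM and 5 neutrophil genes to 1.0 to 1.73 CPM. The 5 mast cell genes summed to 94.2 to 208 CPM in macrophages and to 72.4 to 206 CPM in MECs. Most of that sum was Kit, which was at 72.2 to 206 CPM in MECs as well. The mast cell proteases Cpa3, Mcpt4 and Tpsb2 were at 5.43 to 18.2, 3.74 to 9.64 and 10.3 to 29.1 CPM in macrophages and at 0 to 0.163 CPM in MECs. The 7 dendritic cell genes summed to 179 to 597 CPM in macrophages. The part of dendritic and mast cells in the levels of Itgax and the other leukocyte integrins was not tested. Itgam shares 68.7% of its exon bases with Gm49368 on the same strand, where read pairs that fit both genes were not counted for either. Gm49368 had 0 to 16 counts in the macrophage libraries. The level of Itgam per kb was taken over its full exon length. It may therefore be too low, as may the leukocyte integrin share, and the ratio of Itgb2 to its alpha partners too high.

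The sequences before the start of Itgam and Itgax, which had high levels in macrophages, and of Lamb3, which had high levels in MECs, are shown as examples of both directions, taken from the RefSeq promoter table (GRCm38.p6). Each ends at the base before the first exon of the gene at that start, and all are on the plus strand. Capitals mark the letters GAGGAA, the core bound by the macrophage factor PU.1, and TGANTCA, bound by AP-1, searched on both strands, and the C/EBP motif TTGCNNAA was searched in the same way. The Itgam window is chr7:128062390-128062639, the Itgax window chr7:128129300-128129546 and the Lamb3 window chr1:193301744-193301992, which lies within the longest Lamb3 gene model of the count tables, before an inner start.
Itgam: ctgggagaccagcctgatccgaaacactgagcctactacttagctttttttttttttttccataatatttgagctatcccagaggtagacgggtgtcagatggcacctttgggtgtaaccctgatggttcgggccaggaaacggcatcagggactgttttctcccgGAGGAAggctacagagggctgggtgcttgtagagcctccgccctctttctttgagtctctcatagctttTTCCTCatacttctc
Itgax: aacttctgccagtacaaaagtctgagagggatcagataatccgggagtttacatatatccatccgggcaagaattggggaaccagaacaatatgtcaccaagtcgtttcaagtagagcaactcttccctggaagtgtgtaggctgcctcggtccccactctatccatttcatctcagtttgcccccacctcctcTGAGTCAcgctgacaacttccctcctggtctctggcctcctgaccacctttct
Lamb3: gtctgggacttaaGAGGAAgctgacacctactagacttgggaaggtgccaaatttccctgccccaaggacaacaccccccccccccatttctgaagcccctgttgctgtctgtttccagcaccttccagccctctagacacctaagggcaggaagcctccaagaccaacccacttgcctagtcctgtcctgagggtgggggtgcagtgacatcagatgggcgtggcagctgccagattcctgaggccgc

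Counted back from the last base printed, which is base 1, the PU.1 core began at bases 84 and 15 in Itgam and at base 236 in Lamb3, and the AP-1 letters began at base 53 in Itgax, which held no PU.1 core. Of the 26 windows of 250 bases before a start that the RefSeq table holds for 23 of the 37 genes, 13 held the PU.1 core, against 23.3% of all 32851 windows of the table. In WT, the genes of the windows with the PU.1 core were called higher in macrophages (Itgam, Itga11 and Itga5), called lower (Lamb3 and Itgb6) or not called. The binding of PU.1 was not tested. TGANTCA was in 1 of the 26 windows and in 6.75% of all windows. TTGCNNAA was in 0 of the 26 windows and in 9.56% of all windows, which says that these letters are not in these windows and nothing of the binding of C/EBPβ.

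Itgb7, which pairs with alpha 4 and alpha E in homing receptors, was at 1.10 and 1.58 CPM in WT MECs and at 27.6 and 44.7 CPM in WT macrophages. CebpbΔM gave 1.05 and 1.26 CPM in MECs and 36.3 to 60.4 CPM in macrophages. The difference between cell types was 4.75 ± 0.38 log2 units (edgeR adjusted P = 8.80e-06) in WT and 5.42 ± 0.38 (adjusted P = 2.11e-06) in CebpbΔM. Its alpha partner Itga4, whose pair with beta 1 binds VCAM-1, had 1 to 9 counts in the MEC libraries and 407 to 532 in the macrophage libraries, at least 207-fold higher in WT macrophages. Itga4 shares 8.04% of its exon bases with Cerkl on the opposite strand, which had 82 to 187 counts in macrophages and 0 to 7 in MECs, and the sources used here do not say whether the library kit keeps strand. Per kb, Itgb7 was 5.19 to 10.6 times the sum of Itga4 and Itgae in macrophages. Itgae, the alpha E subunit, was at 0.0502 to 2.68 CPM in macrophages and did not pass the test in either genotype. Itga9, which also pairs with beta 1, was at 8.21 and 9.06 CPM in WT MECs against 15.9 and 20.7 CPM in WT macrophages, and was called in both genotypes, with log2 differences of 1.08 ± 0.33 and 1.11 ± 0.30.

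Other integrin genes higher in macrophages bind collagen, laminin or RGD ligands. Itga11, a collagen-binding subunit known from fibroblasts, was at 2.40 and 5.58 CPM in WT MECs and at 20.8 and 24.3 CPM in WT macrophages, and the CebpbΔM libraries were at 1.63 and 4.27 CPM in MECs and 13.4 to 34.8 CPM in macrophages. Itga1, the other collagen-binding gene called, differed by 2.12 ± 0.46 log2 units in WT (edgeR adjusted P = 0.00640) and by 3.02 ± 0.45 in CebpbΔM (adjusted P = 0.000432). Itga7, a laminin-binding subunit known from muscle and vessel walls, was 4.44-fold and 5.13-fold higher, and Itgb3 differed by 1.70 ± 0.40 and 1.20 ± 0.36 log2 units. Itga5, the fibronectin receptor subunit, was at 59.3 and 68.3 CPM in WT MECs and at 117 and 119 CPM in WT macrophages. CebpbΔM MECs had Itga5 at 55.0 and 62.1 CPM and CebpbΔM macrophages at 73.0 to 129 CPM, and the log2 differences were 0.89 ± 0.26 (adjusted P = 0.0267) and 0.85 ± 0.23 (adjusted P = 0.0149). Lama4, a laminin alpha chain of vessel and fat basement membranes, was the laminin gene called higher in macrophages, by 3.44-fold in WT and 3.34-fold in CebpbΔM. The macrophage libraries also held more RNA of vessel cells, with 6 of 6 endothelial markers above 3 counts and summing to 918 to 2056 CPM, against 91.4 to 132 CPM in MECs, and 5 of 5 pericyte markers summing to 371 to 742 CPM, against 69.5 to 120 CPM. The 5 adipocyte markers summed to 405 to 1109 CPM in macrophages and to 30.7 to 33.4 CPM in MECs. The sums of 7 fibroblast markers overlapped between the cell types, at 5308 to 6473 CPM in MECs and 3353 to 7727 CPM in macrophages. The part of these cells in the differences of Itga1, Itga7, Itga11 and Lama4 was not tested.

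Among the genes lower in macrophages in both genotypes were Lamb3, a beta chain of the laminin of hemidesmosomes, and the epithelial integrin gene Itgb6. Lamb3 was at 186 and 306 CPM in WT MECs and at 37.8 and 40.8 CPM in WT macrophages, and at 207 and 268 CPM in CebpbΔM MECs against 11.3 to 124 CPM in CebpbΔM macrophages. The groups did not overlap, and the log2 differences were -2.64 ± 0.79 (edgeR adjusted P = 0.0317) and -2.04 ± 0.62 (adjusted P = 0.0262), and those of Itgb6, whose pair with alpha V binds latent TGF-β, were -2.58 ± 0.66 and -2.49 ± 0.53. Lama3, an alpha chain of the same laminin, differed by -1.45 ± 0.78 and -0.63 ± 0.64 and was not called in either genotype with all libraries (adjusted P = 0.199 and 0.490). Without CebpbΔM macrophage libraries 4 and 5 it was called in CebpbΔM, at -1.90 log2 units (edgeR adjusted P = 0.0219). In CebpbΔM, Itga3, Itgav and Lama5 were also called lower in macrophages, by -1.31 ± 0.23, -0.99 ± 0.21 and -0.83 ± 0.20 log2 units, whereas their WT differences were -0.08 ± 0.27, -0.22 ± 0.25 and -0.36 ± 0.23. The test of the difference between these pairs is the interaction given below, which none of the 3 genes passed.

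Itgb4 and Itga6, the subunits of the hemidesmosome integrin, were also found at high levels in the macrophage fraction. Itgb4 was at 102 and 145 CPM in WT MECs and at 101 and 105 CPM in WT macrophages, and Itga6 at 136 and 148 CPM against 89.4 and 90.7 CPM, so that the WT fractions overlapped for Itgb4 and did not overlap for Itga6. The log2 differences were -0.26 ± 0.27 in WT and -0.56 ± 0.23 in CebpbΔM for Itgb4 (edgeR adjusted P = 0.513 and 0.0814) and -0.66 ± 0.38 and -0.59 ± 0.32 for Itga6 (adjusted P = 0.233 and 0.188). Neither was called with all libraries, whereas in CebpbΔM Itgb4 was called without CebpbΔM MEC library 1 (-0.91, adjusted P = 0.0198) and Itga6 without CebpbΔM macrophage library 4 (-0.89, adjusted P = 0.0200). Lamb2, a beta chain of vessel and muscle basement membranes, was at 173 and 283 CPM in WT MECs and at 227 and 306 CPM in WT macrophages, 117 and 201 CPM in CebpbΔM MECs and 184 to 297 CPM in CebpbΔM macrophages, and all 4 groups overlapped with at least 1 other. Itga2, a collagen-binding subunit and the highest of its role per kb in WT MECs, was at 9.95 and 12.7 CPM there and at 9.68 and 12.5 CPM in WT macrophages, 6.79 and 13.6 CPM in CebpbΔM MECs and 3.96 to 11.4 CPM in CebpbΔM macrophages. The macrophage fraction thus held these subunits together with epithelial and vessel cell markers, and the part of epithelial or vessel cells in these levels was not tested.

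**Figure D3:**
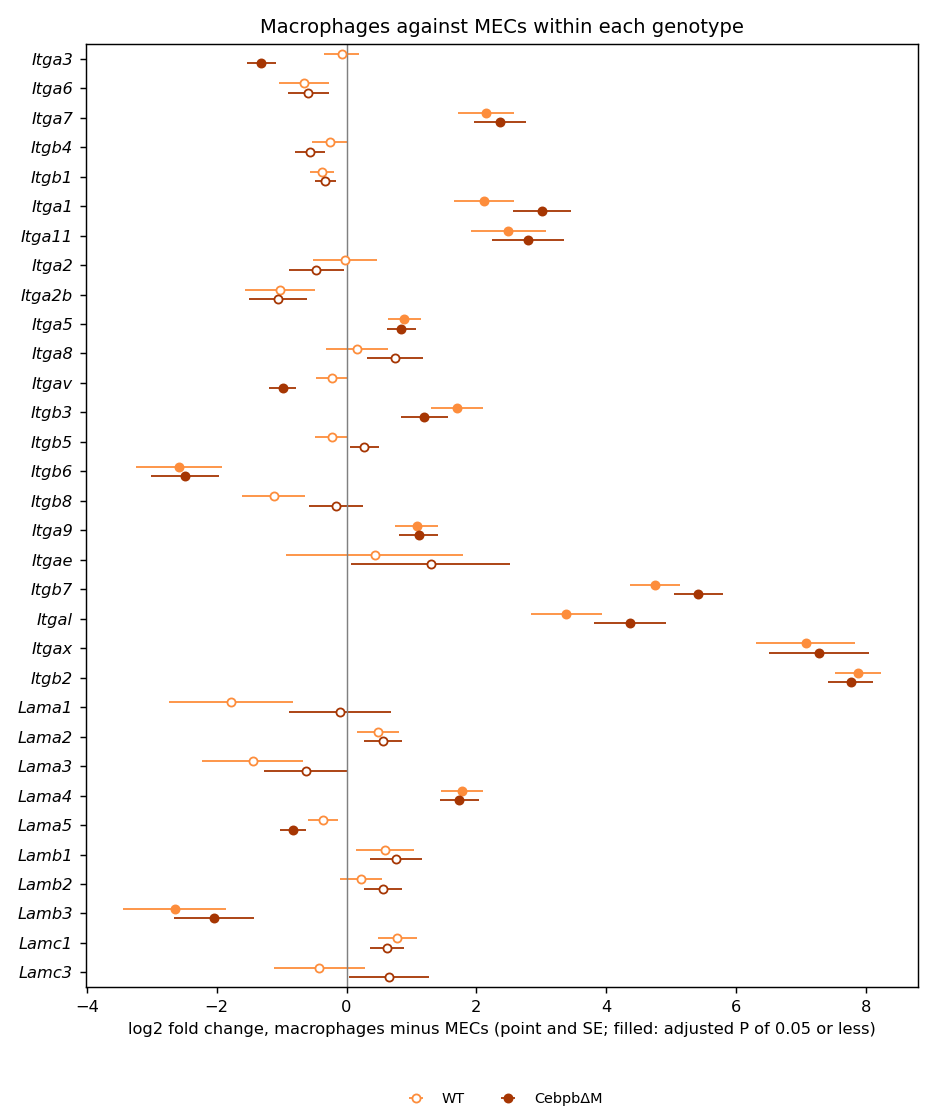
Log2 fold change of macrophages over MECs, WT in light and CebpbΔM in dark orange, with the SE of the edgeR fit, and with filled points where the adjusted P was 0.05 or less. Itgam and Itga4 are left out because most or all MEC libraries had 3 or fewer counts, and Itgb2 lies farthest to the right at 7.87 and 7.77, with Lamb3 and Itgb6 at the left edge.

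Leaving out 1 library changed some of these calls. Without WT MEC library 3, 8 of the 16 genes called in WT passed, namely Itga4, Itga7, Itgal, Itgam, Itgax, Itgb2, Itgb7 and Lama4, and without WT macrophage library 5 there were 11. Lamb3 and Itga5 lost their calls in WT without any 1 of the 4 WT libraries. Itga9 lost its WT call without WT MEC library 1 or 3 or WT macrophage library 5. In CebpbΔM, Lamb3, Itga5 and Itga9 each lost the call without CebpbΔM MEC library 1 or 3. Lamb3 also lost it without CebpbΔM macrophage library 5 or 6. Itgav and Lama5 lost their CebpbΔM calls without CebpbΔM MEC library 3. Itgb3 lost its call without CebpbΔM MEC library 1 or CebpbΔM macrophage library 5. Without CebpbΔM macrophage libraries 4 and 5 together, an alternative chosen after the data were seen, 23 genes were called in CebpbΔM in place of 19, with Itga2, Itga2b, Itga6, Lama1 and Lama3 gained and Itgb3 lost.

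The question of the genotype comparison was whether integrin or laminin genes differed between CebpbΔM and WT within a cell type. None of the 30 genes tested in MECs passed an adjusted P of 0.05 or less by edgeR's quasi-likelihood test, its likelihood ratio test or DESeq2. The background in MECs was 8 of 15698 genes, or 0.051%, by the quasi-likelihood test, 179 by the likelihood ratio test and 161 by DESeq2. In macrophages 0 of 35 passed by any of the 3 tests, with 0 of 17772 genes (0%) called by the quasi-likelihood test, 138 by the likelihood ratio test and 201 by DESeq2. At an unadjusted P under 0.05 there were 3 genes in MECs, beside 5.42% of all genes tested, and 3 in macrophages, beside 8.63%. The median log2 difference was -0.07 in MECs and -0.01 in macrophages, beside -0.01 and 0.00 over all genes. Groups did not overlap for 8 of 30 genes in MECs, beside 28.2% of all genes, and for 4 of 35 in macrophages, beside 18.5%.

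**Figure D4:**
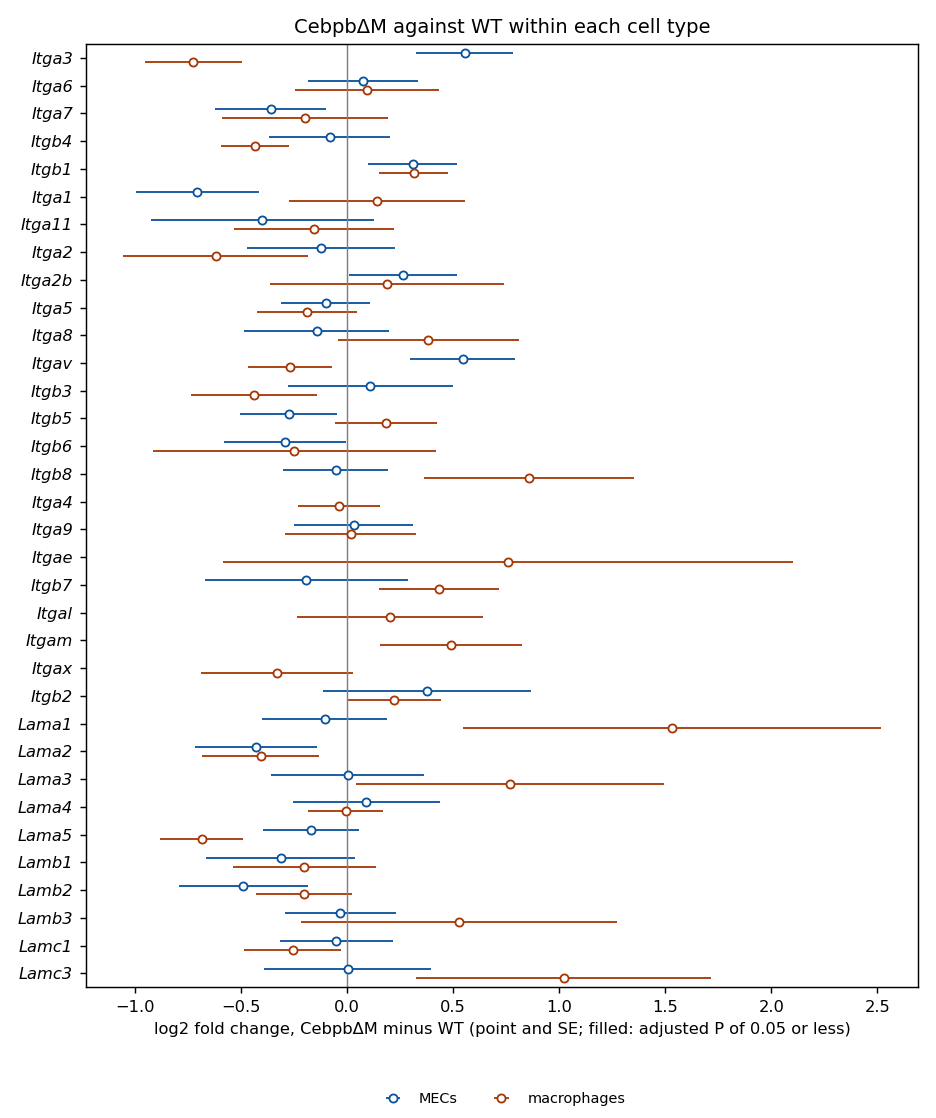
Log2 fold change of CebpbΔM over WT in MECs (blue) and macrophages (brown), with the SE of the edgeR fit. All points are open because no gene had an adjusted P of 0.05 or less, and Itga3 lies to the right of 0 in MECs and to the left in macrophages, while Lama1, Lama3, Lamb3 and Lamc3 have the widest errors in macrophages together with Itgae.

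Itga3, the alpha subunit of a receptor for epithelial laminins, was at 139 and 165 CPM in WT MECs and at 182 and 258 CPM in CebpbΔM MECs. In macrophages it was at 113 and 174 CPM in WT and at 70.6, 87.6, 87.8 and 108 CPM in CebpbΔM. The genotypes did not overlap in either cell type, with the higher level in CebpbΔM MECs and the lower level in CebpbΔM macrophages. The log2 differences were 0.55 ± 0.23 in MECs (unadjusted P = 0.0330, edgeR adjusted P = 0.784) and -0.72 ± 0.23 in macrophages (unadjusted P = 0.0127, adjusted P = 0.508). The interaction, which tests the difference between them, was -1.24 ± 0.36 log2 units with an unadjusted P = 0.00533 and an adjusted P = 0.833 in edgeR.

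Lama5, an alpha chain of the basement membrane of epithelium and vessels, was at 179 and 230 CPM in WT macrophages and at 107, 123, 129 and 158 CPM in CebpbΔM macrophages. All CebpbΔM macrophage libraries were below both WT libraries, by -0.69 ± 0.20 log2 units (unadjusted P = 0.00767, edgeR adjusted P = 0.480). In MECs Lama5 was at 253 and 271 CPM in WT and at 196 and 263 CPM in CebpbΔM, and the genotypes overlapped. Itgb4, at 101 and 105 CPM in WT macrophages and 69.4, 72.0, 80.6 and 87.8 CPM in CebpbΔM macrophages, differed by -0.43 ± 0.16 (unadjusted P = 0.0269, adjusted P = 0.536), and in CebpbΔM MECs it was at 83.3 and 145 CPM. Luminal epithelial RNA moved in the same direction, since the 8 luminal markers summed to 10432 and 10745 CPM in WT macrophages and to 5506 to 7662 CPM in CebpbΔM macrophages, with 3 of 8 genes not overlapping. The 10 macrophage markers moved the other way, from 8272 and 9340 CPM in WT to 10768 to 15997 CPM, with 6 of 10 not overlapping. Of all 17772 genes tested in macrophages, 1439 were lower and 1857 higher in CebpbΔM without overlap. A covariate was the mean log2 level of the luminal and basal epithelial markers together. With it, the log2 differences in macrophages were -0.73 for Itga3, -0.66 for Lama5 and -0.42 for Itgb4, with edgeR adjusted P = 0.366, 0.237 and 0.418. The basal sum was at 823 and 1279 CPM in WT and at 757 to 3258 CPM in CebpbΔM macrophages. The fit therefore cannot separate out the luminal difference, and the part of luminal cells in these levels was not tested.

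In MECs, Itgav, the alpha V subunit that pairs with several beta subunits, was at 56.2 CPM in both WT libraries and at 63.1 and 98.0 CPM in CebpbΔM. It differed by 0.55 ± 0.25 log2 units (unadjusted P = 0.0493, edgeR adjusted P = 0.916). Itga1 was at 10.5 and 14.3 CPM in WT and at 6.91 and 8.04 CPM in CebpbΔM, a difference of -0.71 ± 0.29 (unadjusted P = 0.0335, adjusted P = 0.789). In macrophages neither gene separated the genotypes, with Itgav at 45.5 and 50.8 CPM in WT and 34.5 to 48.1 CPM in CebpbΔM, and Itga1 at 52.9 and 55.0 CPM in WT and 31.9 to 107 CPM in CebpbΔM. Itgav had an interaction of -0.76 ± 0.33 log2 units (unadjusted P = 0.0399, adjusted P = 0.945) and was, with Itga3, the second of 2 genes with an unadjusted P under 0.05 there, beside 5.19% of all genes tested. No gene of the 35 passed the adjusted interaction test by the quasi-likelihood test, the likelihood ratio test or DESeq2. Of all 18323 genes tested, these tests called 0, 53 and 27. Itgav shares 5.90% of its exon bases with Gm13684 on the opposite strand (89 to 449 counts), and the sources used here do not say whether the library kit keeps strand, so reads of both cannot be told apart.

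Of the other genes, Itgb1 was higher in both CebpbΔM MEC libraries than in WT, by 0.31 ± 0.21 log2 units (edgeR adjusted P = 0.9997), and in macrophages it was at 185 and 209 CPM in WT and 211, 252, 264 and 269 CPM in CebpbΔM, by 0.31 ± 0.16 (adjusted P = 0.641). Of the leukocyte integrins in macrophages, Itgam was at 33.4 and 66.1 CPM in WT and 55.2 to 97.8 CPM in CebpbΔM, and Itgb2, Itgal and Itgax had overlapping genotypes. Lamb1 in MECs was at 49.9 and 70.2 CPM in WT and 28.3 and 66.2 CPM in CebpbΔM, and it was the gene called when CebpbΔM library 3 was left out, with a log2 difference of -1.09 (adjusted P = 0.0476), where CebpbΔM library 1 stood alone and its spread was taken from the other libraries.

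Some laminin chains varied widely among the CebpbΔM macrophage libraries. Lamb3 was at 124, 61.8, 32.9 and 11.3 CPM in CebpbΔM macrophage libraries 4, 5, 6 and 7, and at 40.8 and 37.8 CPM in WT libraries 4 and 5. Lama3 was at 58.8, 43.8, 19.8 and 6.61 CPM in the same order of CebpbΔM libraries, and Lama1, an alpha chain of early epithelial basement membranes, at 27.2, 19.3, 5.10 and 1.44 CPM. The 8 basal epithelial markers summed to 3258, 2082, 2024 and 757 CPM in these libraries, and Krt5, a basal keratin, was at 142, 81.5, 32.7 and 6.55 CPM. Krt14, Krt17, Trp63, Cnn1 and Oxtr had the same order. Acta2 (1462, 1012, 1126 and 487 CPM) and Myh11 (270, 207, 310 and 136 CPM) did not. The order from library 4 to library 7 was thus shared by Lamb3, Lama3, Lama1 and the basal sum. It also held for Itga2, so that 4 of 35 genes had it, beside 5.70% of all genes tested. From the highest to the lowest CebpbΔM library the level differed 11.03-fold for Lamb3, 8.90-fold for Lama3, 18.8-fold for Lama1 and 2.88-fold for Itga2, beside a median of 1.99-fold over the 35 genes and of 1.66-fold over all genes tested. Without CebpbΔM macrophage libraries 4 and 5, which had the most basal RNA, 0 of 35 genes passed the genotype test, and the log2 differences were -0.73 for Itga3, -0.53 for Lama5 and -0.31 for Itgb4. The part of basal cells in the levels of Lamb3, Lama3 and Lama1 was not tested.

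**Figure D5:**
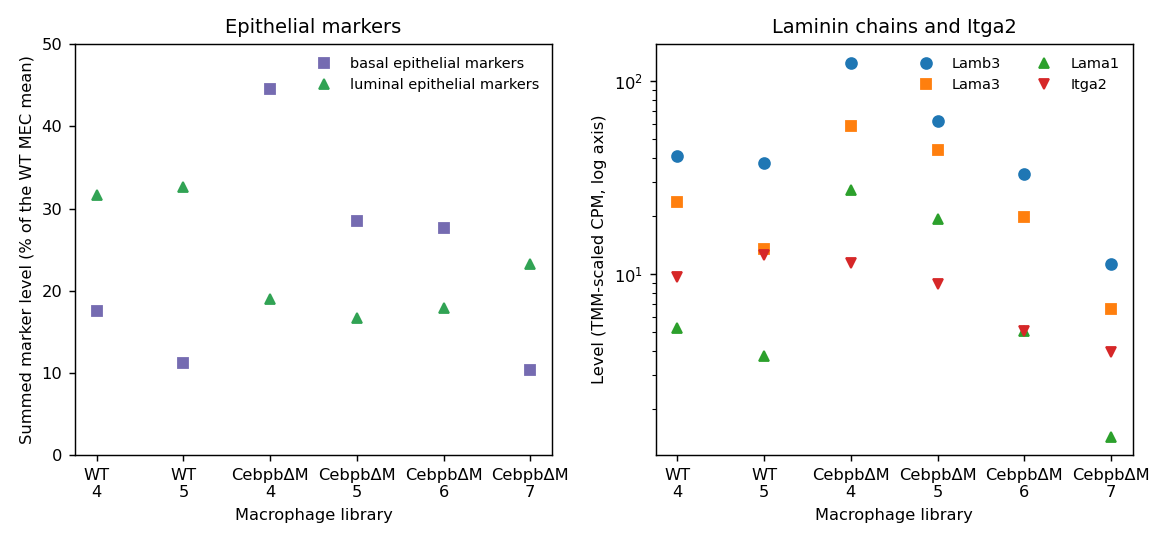
Left, summed level of 8 basal (squares) and 8 luminal (triangles) epithelial markers in each macrophage library, in percent of the WT MEC mean. Right, level of Lamb3, Lama3, Lama1 and Itga2 in the same libraries, in TMM-scaled CPM on a log axis. The basal sum runs from 44.6% to 10.4% over CebpbΔM libraries 4 to 7, Lamb3 from 124 to 11.3 CPM and Lama1 from 27.2 to 1.44 CPM.

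Subunits that form 1 protein were compared per kb within libraries. Lamb3 was 4.77 to 15.0 times the Lama3 level in MECs and 2.29 to 4.53 times in macrophages. Lama3 shares 1.83% of its exon bases with Gm29200 on the opposite strand (1 to 99 counts). Itgb4 was 0.897 to 1.38 times its partner Itga6 in MECs and 0.586 to 1.82 times in macrophages.

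A list of 63 genes that act with integrins and laminins was followed as well, with 27 adaptor and signaling genes, 7 hemidesmosome and tetraspanin genes, 5 laminin receptors that are not integrins, 12 basement membrane partners and 12 other integrin ligands. No gene of this list passed in MECs (59 tested) or macrophages (63 tested) between genotypes by the quasi-likelihood test, the likelihood ratio test or DESeq2, and 0 and 3 had an unadjusted P under 0.05, beside 5.42% and 8.63% of all genes tested. Those 3 of 63 were thus a smaller share than the background. All lower in CebpbΔM macrophages, they were Sdc1, a heparan sulfate receptor for laminin, at 303 and 324 CPM in WT and 201, 221, 239 and 249 CPM in CebpbΔM, Plec, the plectin that ties beta 4 to keratin, at 407 and 557 CPM in WT and 272 to 394 CPM in CebpbΔM, and the tetraspanin Cd9, whose genotypes overlapped. Their adjusted P values were 0.508, 0.521 and 0.555. The smallest P values toward CebpbΔM macrophages belonged to Sharpin, Tgfb1 and Parvg, with log2 differences of 0.35 ± 0.17, 0.63 ± 0.34 and 1.35 ± 0.87. In MECs they belonged to Dag1, Cd151 and Zyx in the direction of CebpbΔM (0.44 ± 0.24, 0.47 ± 0.27 and 0.36 ± 0.26) and to Icam2, Kank1 and Parva in the direction of WT (-0.60 ± 0.34, -0.48 ± 0.29 and -0.35 ± 0.22), each with an adjusted P = 0.9997.

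Between cell types, 30 of the 63 passed in WT, 18 higher and 12 lower in macrophages, beside 25.5% of all genes tested (14.8% higher, 10.7% lower). In CebpbΔM 34 passed, 20 higher and 14 lower, beside 33.7% (18.9% higher, 14.7% lower). Fermt3, the kindlin that activates integrins in blood cells, was at 1.34 and 1.90 CPM in WT MECs and 79.6 and 148 CPM in WT macrophages, and the epithelial kindlin Fermt1 at 76.4 and 84.5 CPM against 25.2 and 35.9 CPM. Both were called in both genotypes, with log2 differences of 6.13 ± 0.49 and 6.48 ± 0.49 for Fermt3 and of -1.40 ± 0.35 and -1.78 ± 0.29 for Fermt1, whose WT call was lost without WT MEC library 1 or 3 or WT macrophage library 4 (edgeR adjusted P = 0.0680, 0.0502 and 0.0877). All 3 laminin receptors that passed, Sdc1, Sdc4 and Rpsa, were lower in macrophages in both genotypes. Of the basement membrane partners, Nid1, which links laminin to collagen IV, Nid2 and the perlecan gene Hspg2 were higher in macrophages and Col4a6 was lower, in both genotypes. Vcam1, the ligand of the pair of alpha 4 and beta 1, was at 18.4 and 31.3 CPM in WT MECs and 122 and 151 CPM in WT macrophages, and Fn1, the ligand of alpha 5, at 52.6 and 81.3 CPM against 663 and 783 CPM. The macrophage libraries also held more endothelial, pericyte and adipocyte marker RNA than the MEC libraries, as given above. The part of these cells in the differences of Nid1, Nid2, Hspg2, Vcam1 and Fn1 was not tested.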

How the data were processed

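RNA-seq libraries of MECs (2 WT, 2 CebpbΔM) and mammary macrophages (2 WT, 4 CebpbΔM) were grouped by the genotype and cell type of their labels. Per the methods and file headers, the authors cleaned reads with Trimmomatic (version 0.33) and aligned them with HISAT2 (version 2.1.0, CHURP pipeline, GRCm38). FeatureCounts (version 1.6.2, Ensembl release 100) then assigned pairs whose ends both aligned, at a minimum mapping quality of 10, on the reverse strand, leaving out pairs that overlapped exons of 2 genes. The authors deposited raw whole-number counts and, as another column, the exon length of each gene. All 10 sample columns were used. Symbols came from GENCODE release M21.

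Genes of at least 300 nt with over 1 CPM in at least 2 libraries of a fit were tested with the quasi-likelihood test of edgeR (version 4.0.16, R version 4.3.3), TMM scaling and Benjamini-Hochberg adjustment over all genes tested, at an adjusted P of 0.05 or less. Each genotype comparison was fitted on the libraries of its cell type, and the cell type comparisons and the interaction on all 10. The paper's methods name the likelihood ratio test, run here as an alternative, with DESeq2 (version 1.42.0), relative log expression (RLE) scaling, filterByExpr, no filter, all 10 libraries in one fit, an epithelial covariate for macrophages, a replicate block and each library left out. The fits were tested on simulated counts. Values at or under 3 counts were treated as the floor, which covers counting error only. Tables were handled with pandas (version 2.3.3) and plots drawn with matplotlib (version 3.10.9).

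The genes, the 63 partner genes and the marker lists were chosen with earlier results of these data known. Values by library were given for genes with an unadjusted P under 0.05 in a genotype comparison and for the highest gene per kb of each role in either WT cell type, with partner genes named when called or, between genotypes, as the 3 with the smallest P in each direction. Further genes, among them Lamb3, Lama3, Lama1, Itgam and Lamb1, were named after their values were seen. 1 of the 37 genes is counted but not reported here by name.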

Additional observations from a re-analysis of the deposited data

Results flagged for a closer look

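The genotype differences of Itga3 pointed in opposite directions, and neither passed the test (edgeR adjusted P = 0.784 in MECs and 0.508 in macrophages). Both CebpbΔM MEC libraries (182 and 258 CPM) were above both WT MEC libraries (139 and 165 CPM), and all 4 CebpbΔM macrophage libraries (70.6 to 108 CPM) were below both WT macrophage libraries (113 and 174 CPM). Genotypes also did not overlap, in either direction, for 28.2% of all genes tested in MECs and for 18.5% in macrophages. The genotype effect in macrophages minus that in MECs was -1.24 log2 units, with an unadjusted P = 0.00533 and an edgeR adjusted P = 0.833 in the interaction test, so the difference did not pass over all genes tested. In the epithelial markers of the macrophage libraries, the luminal sum was lower in CebpbΔM than in WT. The epithelial covariate averaged luminal and basal markers, and the part of luminal cells in the Itga3 level was not tested.

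Itga10, a collagen-binding integrin alpha subunit, stood apart in CebpbΔM macrophage library 5, at 0.828 CPM (17 counts), where the other 3 libraries had 7 or 8 counts. The gap to the nearest library was 0.937 of the range of the 4 libraries, above Dixon's 95% critical value for a group of 4. It was 1 of 36 genes examined in this way, and chance flags about 1 in 20 groups.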

How the results depend on the processing

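Among 11 alternatives in MECs and 15 in macrophages (1 of them, without CebpbΔM libraries 4 and 5, chosen after the data were seen), no integrin or laminin gene passed the genotype test except Lamb1 in 1 alternative, and none passed the interaction in 17. The number of genes called between genotypes in MECs was 0 to 1 with 1 library left out, the value of 1 (and of 3 partner genes, Spp1, Thbs1 and Tnc, in a range of 0 to 3) coming from leaving out CebpbΔM library 3. In macrophages and in the interaction it was 0 with any 1 library left out, for partner genes in macrophages also 0. Between WT cell types it was 8 to 18, with 8 without WT MEC library 3, against 16 with all libraries, and between CebpbΔM cell types 15 to 21 against 19. Where 1 library was left in a group, its spread was taken from the other groups. Without CebpbΔM macrophage libraries 4 and 5 together, 18 genes were called between WT cell types and 23 between CebpbΔM cell types. The integrin and laminin genes called between cell types, with Fermt1 and Fermt3, kept their sign under every alternative run, and 36 of their 624 values under alternatives lost the call. Some differences that were not called changed sign. With 1 library left out, the log2 differences of macrophages over MECs were -0.38 to 0.25 for Itga3 in WT (above 0 without WT MEC library 1, at 0.050, or WT macrophage library 4), -0.49 to 0.011 for Itgb4 in WT (above 0 without WT MEC library 1) and -1.13 to 0.15 for Lama3 in CebpbΔM (above 0 without CebpbΔM MEC library 3). Between MEC genotypes they were -1.09 to 0.19 for Lamb1 and -0.035 to 0.66 for Zyx, with the sign turned without CebpbΔM library 1.

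The replicate numbers 1 and 3 (MECs) and 4 and 5 (macrophages) occur in both genotypes, but nothing in the labels ties them to a shared litter or day. Deviations of libraries with the same number correlated at r = 0.11 in MECs and at 0.12 and -0.09 in macrophages. With the replicate number as a block, 0 integrin or laminin genes passed in MECs, in macrophages and in the interaction, and over all genes 205 passed in MECs, against 8 without the block, and 12 in macrophages, against 0. The likelihood ratio test called 179 and DESeq2 161 of all genes in MECs, and 138 and 201 in macrophages. In place of TMM-scaled CPM per kb, TPM gave the same shares of the summed level (19.2% for Itgb1 in WT MECs and 20.2% for Itgb2 in WT macrophages), since both scales differ by 1 factor per library. With 2 libraries in most groups and fewer than 10 counts of Itga4, Itgam and Itgax in each MEC library, genotype differences of these genes in MECs were not detectable at this depth.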
